A study of Mus musculus with 8 samples.

Results

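The sarcoplasmic reticulum (SR) calcium handling genes of the mouse left ventricle (LV) were described in 8 RNA sequencing libraries. The members were the 10 genes *Ryr2*, *Atp2a2*, *Pln*, *Sln*, *Casq2*, *Trdn*, *Hrc*, *Jph2*, *Slc8a1* and *Camk2d*, taken by symbol from the 46040 genes of the deposited count table. All 10 were in the table. Of these, 9 passed the filter on low counts, as did 13542 genes in all, and *Sln* was at or near 0 in every library. The libraries came from LVs of male C57BL/6 mice, 5 to 7 months old, on day 14 of angiotensin II (angII) infusion by minipump at 0.1 mg/kg/h, a model of pressure overload with LV hypertrophy. A group of 4 libraries carried the genotype tag of VEGFR-1 TK-/- mice, whose germline *Flt1* allele lacks the tyrosine kinase domain of VEGFR-1, and the other 4 that of littermate controls. Both groups received angII, so no library is from an untreated heart, and only mice alive on day 14 were sampled. The title of every library names the genotype opposite to its tag and library name. Libraries were grouped by the tags, as control-tagged and VEGFR-1 TK-/--tagged, and every sign given here reverses if the titles are right. The comparison addressed whether RNA levels of calcium cycling genes in the overloaded LV differed with VEGFR-1 kinase deficiency.

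With each heartbeat, calcium enters the cardiomyocyte through L-type channels and opens the ryanodine receptor *Ryr2*, the release channel of the SR, at junctions where junctophilin 2 (*Jph2*) holds the SR close to the T-tubules. Calsequestrin 2 (*Casq2*) stores calcium in the SR lumen and is tethered to the channel by triadin (*Trdn*), and the histidine-rich protein *Hrc* also binds calcium there. For relaxation, the pump SERCA2 (*Atp2a2*) returns calcium to the SR and is restrained by phospholamban (*Pln*) and, mainly in the atria, by sarcolipin (*Sln*). The sodium-calcium exchanger *Slc8a1* carries calcium out of the cell, and the kinase CaMKII delta (*Camk2d*) phosphorylates the release channel and phospholamban.

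The libraries held 11449137 to 16239670 counts on genes. Levels are given as normalized CPM, the count scaled to a common library size after TMM correction. The summed level of 8 cardiomyocyte markers was 68345 to 109125 normalized CPM in the control-tagged and 87332 to 108894 in the VEGFR-1 TK-/--tagged libraries. For 5 atrial markers the sums were 6.82 to 12.1 and 5.85 to 11.01. The 8 include genes of cardiomyocytes in general. Among them, the ventricular light chain *Myl2* was at 10749 ± 2063 and 12250 ± 2236 (SD, n = 4 per group). Fibroblast markers (5 genes) summed to 1048 to 1540 and 564 to 1310, endothelial markers (5 genes) to 1229 to 1559 and 1122 to 1240, and no marker gene of any cell type passed the thresholds. The log2 fold changes (VEGFR-1 TK-/--tagged over control-tagged) of the endothelial markers were −0.38 for *Cdh5*, −0.40 for *Tie1*, −0.29 for *Pecam1*, −0.21 for *Egfl7* and 0.01 for *Kdr*. Their lowest FDR was 0.464 (edgeR quasi-likelihood test). Library names refer to cardiomyocytes whereas the source is given as LV tissue. The study also mentions isolated cardiomyocytes at baseline, without showing their data. In bulk tissue, fewer cells of a type and less RNA per cell cannot be told apart. *Flt1*, the targeted gene, was at 69.2 ± 11.3 normalized CPM in the control-tagged and 158 ± 13.2 in the VEGFR-1 TK-/--tagged libraries (SD, n = 4 per group), and the log2 fold change was 1.19 (SE 0.12, FDR = 0.00808, edgeR quasi-likelihood test). Counts per gene cannot tell the deleted allele from the intact one here, so this does not settle which label is right.

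The promoters of *Pln* and *Hrc* are shown because *Pln* was the member whose groups separated and *Hrc* the member that varied most between libraries. Each sequence is the 250 bases before the RefSeq start of the gene (GRCm38.p6), on the strand of the gene and 5′ to 3′, with motif matches on either strand in capitals. For *Pln* this is chr10:53337436-53337685 (plus strand), with a TATAAA match from position −219 relative to the start and an AGATAA match, read on the opposite strand as TTATCT, from position −183. For *Hrc* it is chr7:45335019-45335268 (plus strand), with a GC box match (GGGCGG, read as CCGCCC) from position −200.
Pln: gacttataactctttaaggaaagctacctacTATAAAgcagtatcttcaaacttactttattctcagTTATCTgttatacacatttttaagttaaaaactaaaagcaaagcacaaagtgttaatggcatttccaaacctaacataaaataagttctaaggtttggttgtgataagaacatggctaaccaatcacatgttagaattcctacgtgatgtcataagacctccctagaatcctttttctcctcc
Hrc: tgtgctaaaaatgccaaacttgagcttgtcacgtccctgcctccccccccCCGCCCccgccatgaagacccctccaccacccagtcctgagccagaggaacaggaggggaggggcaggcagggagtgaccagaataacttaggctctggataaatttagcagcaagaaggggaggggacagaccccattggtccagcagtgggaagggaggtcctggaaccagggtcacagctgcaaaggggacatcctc
The base composition of these windows differed, with 32.8% G and C for *Pln* and 59.6% for *Hrc*. RefSeq promoters were matched by symbol for 7 of the 10 members, without *Atp2a2*, *Sln* and *Trdn*. The 6 motifs searched on both strands were the core of the MEF2 motif, the GATA motif AGATAA, the M-CAT motif CATTCC, the E box CACGTG, the TATA box TATAAA and the GC box GGGCGG, and none of their matches in the windows shown overlapped. Of the 7 member promoters, 2 held AGATAA (*Pln* and *Slc8a1*), 1 held TATAAA (*Pln*) and 3 held GGGCGG (*Hrc*, *Jph2* and *Camk2d*). The other motifs had no match in them. Among 32851 promoters, 9.99% held AGATAA, 12.4% TATAAA, 32.7% GGGCGG, 3.2% the MEF2 core, 12.6% CATTCC and 6.02% CACGTG. A match describes letters and is not evidence of binding.

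The 10 genes together took 2.07% to 2.54% of the counts of a library. Levels between genes are compared here as normalized CPM per kilobase of the longest protein-coding transcript, averaged over the 8 libraries. *Atp2a2* was highest at 2923 ± 386 per kilobase (SD, n = 8), followed by its inhibitor *Pln* at 2034 ± 286. The luminal calcium binders *Hrc* and *Casq2* came next at 664 ± 176 and 600 ± 80.2 per kilobase, and *Jph2* stood at 190 ± 16.7. The release channel *Ryr2* reached 72.1 ± 7.26 per kilobase on a transcript of 16.81 kilobases. *Trdn* was at 41.9 ± 7.51, *Camk2d* at 29.4 ± 1.68 (lowest 27.4, highest 32.6) and *Slc8a1* at 3.201 ± 0.366 per kilobase. *Sln* was last at 0.0407 per kilobase. The ranges of *Atp2a2* and *Pln* overlapped although *Atp2a2* was above *Pln* in 8 of 8 libraries. *Hrc* was above *Casq2* in 5 of 8 libraries and *Trdn* above *Camk2d* in 7 of 8, so these neighbours did not separate, whereas the ranges of the other neighbours did not overlap. Per kilobase of all annotated exons the order was the same. By normalized CPM without regard to length, *Atp2a2* ranked 4 and *Pln* 17 among the 13542 genes tested.

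No member passed both thresholds, an FDR below 0.1 and a fold of 1.5 or more in either direction, by the quasi-likelihood test, a count of 0 of 9. The background was 1 gene of 13542, or 0.00738%, which was *Flt1*. The likelihood ratio test also called 0 of 9 members (background 0.391%), and DESeq2 called 0 of 9 (background 0.236%). At an unadjusted p under 0.05 the quasi-likelihood test gave 1 of 9, *Pln*, against 8.96% of all genes (3.32% with the VEGFR-1 TK-/--tagged mean higher and 5.64% with it lower). The groups did not overlap for 1 of 9 members, again *Pln*, against 4.98% of all genes (2.46% with the VEGFR-1 TK-/--tagged group above and 2.53% with it below). Of the 9, 6 had a log2 fold change above 0, against 49.7% of all genes, with a median of 0.04, against a median of −0.001 over all genes. With 4 against 4 libraries, the exact permutation test cannot give a p below 0.0286.

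**Figure D1:**
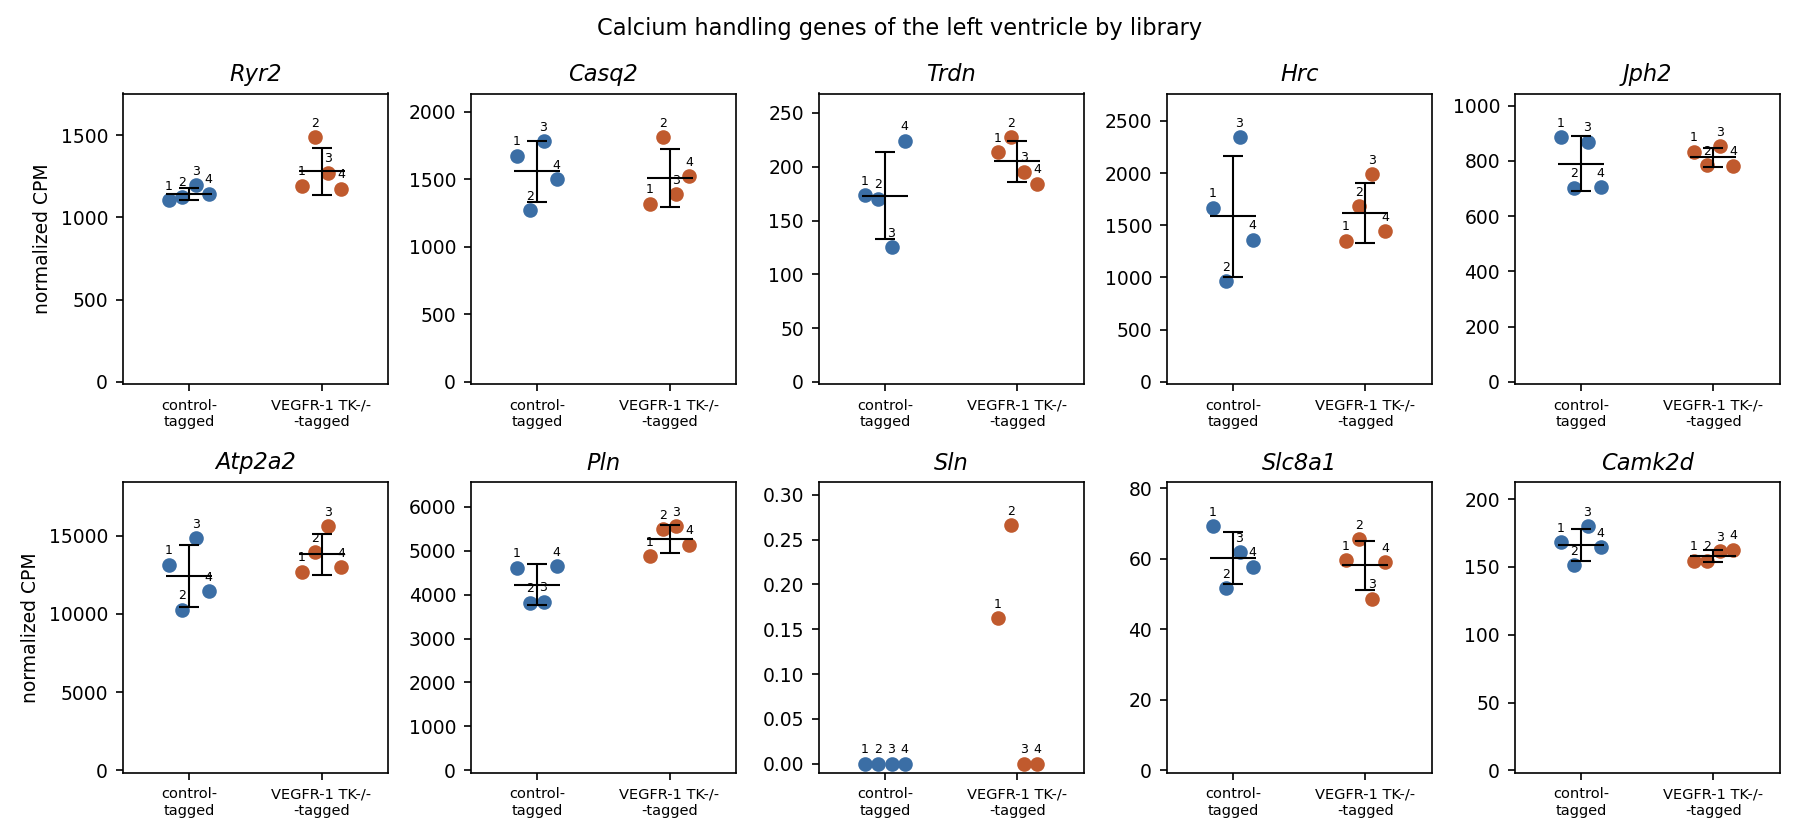
Normalized CPM (y axis, linear, from 0) of the 10 genes in the 4 control-tagged (blue) and 4 VEGFR-1 TK-/--tagged (orange) libraries, with points numbered by replicate and bars giving the mean ± SD of 4 libraries (not drawn for *Sln*). *Pln* is the gene whose groups do not overlap, at 3817 to 4648 against 4872 to 5562, and *Sln* reaches 0.266 at most.

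*Ryr2* (ENSMUSG00000021313, GRCm38 chromosome 13, 11553102 to 12106945, minus strand) was measured at 1107, 1125, 1197 and 1144 normalized CPM in control-tagged replicates 1 to 4 and at 1193, 1487, 1272 and 1175 in VEGFR-1 TK-/--tagged replicates 1 to 4. The groups overlapped, and VEGFR-1 TK-/--tagged replicate 2 stood above the other 7 libraries. The control-tagged mean was 1143 ± 38.9 and the VEGFR-1 TK-/--tagged mean 1282 ± 143 (SD, n = 4 per group). The log2 fold change was 0.17 (SE 0.12, 95% interval −0.09 to 0.42, FDR = 0.703, edgeR quasi-likelihood test), and the exact permutation test gave p = 0.0857. Leaving out VEGFR-1 TK-/--tagged replicate 2 gave *Ryr2* a log2 fold change of 0.08.

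The other genes of the release complex gave smaller or less even differences. *Casq2* (ENSMUSG00000027861, chromosome 3, 102086415 to 102146514, plus strand) was at 1673, 1272, 1783 and 1500 normalized CPM in the control-tagged and at 1318, 1809, 1391 and 1522 in the libraries tagged VEGFR-1 TK-/-. The lowest and the highest library were in different groups but the 2 ranges were nearly the same, with means of 1557 ± 223 and 1510 ± 217 (SD, n = 4 per group). The log2 fold change of *Casq2* was −0.04 (SE 0.15, 95% interval −0.37 to 0.28, FDR = 0.949).

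*Trdn* (ENSMUSG00000019787, chromosome 10, 33080554 to 33476709, plus strand) was at 173, 170, 125 and 224 normalized CPM in the control-tagged and at 214, 227, 195 and 184 in the VEGFR-1 TK-/--tagged libraries. Control-tagged replicate 3 was the lowest of all 8, and control-tagged replicate 4 lay inside the other group. The means were 173 ± 40.5 and 205 ± 19.0 (SD, n = 4 per group), and the log2 fold change was 0.25 (SE 0.15, 95% interval −0.09 to 0.58, FDR = 0.666). Without control-tagged replicate 3 this log2 fold change was 0.11, and without control-tagged replicate 4 it was 0.39.

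*Hrc* (ENSMUSG00000038239, chromosome 7, 45335290 to 45338974, plus strand) varied most. Its values were 1667, 966, 2341 and 1363 normalized CPM in the control-tagged and 1352, 1682, 1989 and 1443 in the libraries tagged VEGFR-1 TK-/-. The lowest and the highest library were both control-tagged, replicates 2 and 3. The means were 1584 ± 580 and 1617 ± 285 (SD, n = 4 per group), with a log2 fold change of 0.03 (SE 0.24, 95% interval −0.49 to 0.54, FDR = 0.980). The log2 fold change was −0.15 without control-tagged replicate 2, −0.04 without control-tagged replicate 4, −0.09 without VEGFR-1 TK-/--tagged replicate 3 and 0.28 without control-tagged replicate 3.

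*Jph2* (ENSMUSG00000017817, chromosome 2, 163336242 to 163397993, minus strand) was at 885, 703, 869 and 705 normalized CPM in the control-tagged and at 833, 785, 852 and 783 in the VEGFR-1 TK-/--tagged libraries. All VEGFR-1 TK-/--tagged values lay inside the range of the control-tagged values. The means were 790 ± 100.1 and 813 ± 34.8 (SD, n = 4 per group), and the log2 fold change was 0.04 (SE 0.12, 95% interval −0.21 to 0.30, FDR = 0.938).

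Of the uptake genes, *Atp2a2* (ENSMUSG00000029467, chromosome 5, 122453513 to 122502225, minus strand) was at 13143, 10262, 14837 and 11448 normalized CPM in control-tagged replicates 1 to 4 and at 12703, 13930, 15613 and 12982 in VEGFR-1 TK-/--tagged replicates 1 to 4. Control-tagged replicates 2 and 4 were the lowest libraries and the groups overlapped. The means were 12422 ± 1997 and 13807 ± 1314 (SD, n = 4 per group). The log2 fold change was 0.15 (SE 0.17, 95% interval −0.23 to 0.53, FDR = 0.827, exact permutation test p = 0.286). For *Atp2a2* it was 0.07 when control-tagged replicate 2 was left out and 0.25 when control-tagged replicate 3 was left out. *Atp2a2* lies on the same chromosome as *Flt1*, 25.059 Mb away.

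*Pln* (ENSMUSG00000038583, chromosome 10, 53337667 to 53345987, plus strand) was the member with the largest difference. It was measured at 4607, 3817, 3834 and 4648 normalized CPM in control-tagged replicates 1 to 4. The values of VEGFR-1 TK-/--tagged replicates 1 to 4 were 4872, 5495, 5562 and 5136. Every VEGFR-1 TK-/--tagged library was above every control-tagged library. Control-tagged replicates 2 and 3 were the low ones, and the gap between the groups was narrow next to the spread inside them. The control-tagged mean was 4227 ± 464 and the VEGFR-1 TK-/--tagged mean 5266 ± 322 (SD, n = 4 per group), a ratio of 1.25. The log2 fold change was 0.32 (SE 0.14, 95% interval 0.01 to 0.62) with an unadjusted p = 0.0421 and an FDR = 0.541 by edgeR's quasi-likelihood test. The exact permutation test gave p = 0.0286, the smallest it allows. *Pln* ranked 1053 by p among all genes tested, and the difference failed the correction. Over 17 alternatives the FDR of *Pln* ran from 0.175 by DESeq2 to 0.941, with 0.345 by the likelihood ratio test.

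The *Pln* difference was smaller on 2 other scales. Control-tagged replicate 3 departed from the other libraries in a trend with transcript GC content: the median log2 deviation of the quintile of genes with the highest GC minus that of the lowest quintile was 0.34 in this library and −0.13 to 0.03 in the others. The *Pln* transcript has a GC content of 38.6%. After correction for this trend its log2 fold change was 0.24 (FDR = 0.635, edgeR quasi-likelihood test), still without overlap of the groups. Relative to the summed cardiomyocyte markers, *Pln* was at 47.4 ± 8.76 and 55.4 ± 3.81 CPM per 1000 CPM of markers (SD, n = 4 per group). On this scale the groups overlapped and the log2 difference was 0.24 (exact permutation test, p = 0.143). The gene lies inside *Cep85l*, on the opposite strand, with 141 shared exon bases, and an antisense gene, *Gm47644*, shares 1644 bases or 59.6% of its exon bases. Whether the counting used strand, and how it treated reads on shared bases, is not given in the sources used here. Reads of these genes may thus have been added to *Pln*, or *Pln* reads on shared bases left out, and this cannot be told apart.

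*Sln* (ENSMUSG00000042045, chromosome 9, 53850164 to 53854560, plus strand) had 0 counts in each of the 4 control-tagged libraries. It had 2 counts in VEGFR-1 TK-/--tagged replicate 1, 3 in replicate 2 and 0 in replicates 3 and 4. These 5 counts in all stand beside 52583 to 70396 counts of *Pln* per library. A count of 0 allows up to 0.185 to 0.246 CPM in the 6 libraries without a count, which covers counting error only. *Sln* was thus at or near 0 in both groups. A difference between the groups at such low levels was not detectable at this depth, and no ratio of *Sln* to *Atp2a2* was computed. The 5 atrial markers were also near 0, at 12.1 normalized CPM in sum at most.

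The ratio of *Pln* to *Atp2a2*, as counts per kilobase, was 0.674, 0.715, 0.497 and 0.780 in control-tagged replicates 1 to 4. It was 0.737, 0.758, 0.685 and 0.760 in VEGFR-1 TK-/--tagged replicates 1 to 4. The groups overlapped, with the highest and the lowest library both control-tagged, and the VEGFR-1 TK-/--tagged library was above the control-tagged one in 11 of 16 pairs. The means were 0.666 ± 0.121 and 0.735 ± 0.0352 (SD, n = 4 per group), or 0.347 ± 0.0632 and 0.383 ± 0.0183 as a ratio of counts without length. The log2 difference was 0.16 (SE 0.15), with an exact 2-sided permutation test p = 0.343 and p = 0.600 adjusted over 7 ratios. The 95% interval from the same test ran from a fold of 0.877 to 1.53, so a ratio higher by that upper bound was not excluded by these libraries. Without control-tagged replicate 3, the library with the GC trend, the log2 difference was 0.03, and with correction for GC content it was 0.08.

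**Figure D2:**
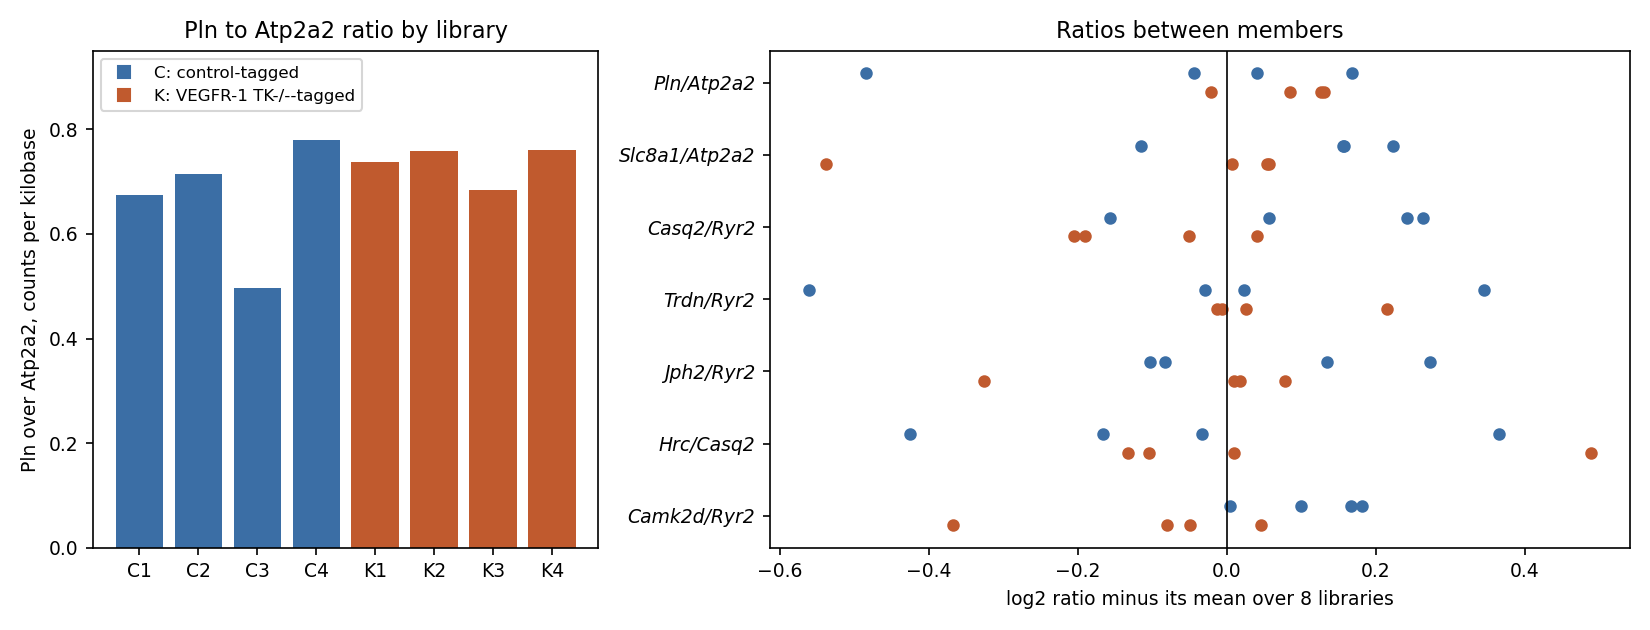
Left, the ratio of *Pln* to *Atp2a2* as counts per kilobase (y axis, from 0) in each library, C1 to C4 control-tagged and K1 to K4 VEGFR-1 TK-/--tagged; right, the log2 of 7 ratios minus its mean over the 8 libraries, with 1 point per library in the same colours. The *Pln* to *Atp2a2* ratio is between 0.674 and 0.780 in 7 libraries and 0.497 in control-tagged replicate 3, and the groups overlap for all 7 ratios.

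The other ratios set the RNA of parts of the release complex and of the calcium removal pathways against each other. They do not give ratios of protein or of calcium transport. The *Camk2d* to *Ryr2* ratio came nearest to separating the groups, at 0.463, 0.409, 0.458 and 0.437 in the control-tagged and 0.394, 0.316, 0.386 and 0.421 in the VEGFR-1 TK-/--tagged libraries. In 1 of 16 pairs the VEGFR-1 TK-/--tagged library was the higher. The means were 0.442 ± 0.0245 and 0.380 ± 0.0447 (SD, n = 4 per group), a log2 difference of −0.23 (SE 0.10, exact permutation test p = 0.0571, adjusted p = 0.4001), with a 95% interval of 0.688 to 1.03 in fold. *Casq2* to *Ryr2*, the calcium store against its channel, was 8.95 ± 1.17 and 7.75 ± 0.635 (SD, n = 4 per group), a log2 difference of −0.20 (exact permutation test p = 0.114, adjusted p = 0.4001). *Slc8a1* to *Atp2a2*, calcium export against reuptake, was 0.00119 ± 0.000117 and 0.00104 ± 0.000187 (SD, n = 4 per group), with a log2 difference of −0.21 (exact permutation test p = 0.314, adjusted p = 0.600). After correction for GC content that difference was −0.28 with an unadjusted p = 0.0286, the smallest the exact permutation test allows. Without VEGFR-1 TK-/--tagged replicate 3, the *Slc8a1* to *Atp2a2* difference before this correction was −0.07. The log2 differences of *Trdn* to *Ryr2* (0.11), *Jph2* to *Ryr2* (−0.11) and *Hrc* to *Casq2* (0.13) had adjusted p-values from 0.633 to 0.686 by the exact permutation test. That of *Trdn* to *Ryr2* was −0.06 without control-tagged replicate 3, and that of *Hrc* to *Casq2* was −0.01 without VEGFR-1 TK-/--tagged replicate 3.

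*Slc8a1* (ENSMUSG00000054640, chromosome 17, 81373105 to 81738377, minus strand) was at 69.2, 51.6, 61.9 and 57.7 normalized CPM in the control-tagged and at 59.6, 65.4, 48.6 and 58.9 in the libraries tagged VEGFR-1 TK-/-. The ranges overlapped over most of their length. The means were 60.1 ± 7.41 and 58.1 ± 6.998 (SD, n = 4 per group), and the log2 fold change was −0.05 (SE 0.12, 95% interval −0.30 to 0.21, FDR = 0.931). *Slc8a1* was the lowest of the 9 tested members, with 615 to 925 counts per library.

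*Camk2d* (ENSMUSG00000053819, chromosome 3, 126596302 to 126846326, plus strand) was at 168, 151, 180 and 164 normalized CPM in the control-tagged and at 155, 155, 161 and 163 in those tagged VEGFR-1 TK-/-. All VEGFR-1 TK-/--tagged values lay inside the control-tagged range. The means were 166 ± 11.9 and 158 ± 4.33 (SD, n = 4 per group), with a log2 fold change of −0.07 (SE 0.09, 95% interval −0.26 to 0.12, FDR = 0.845). Leaving out control-tagged replicate 3 gave *Camk2d* −0.03 and leaving out control-tagged replicate 2 gave −0.11.

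**Figure D3:**
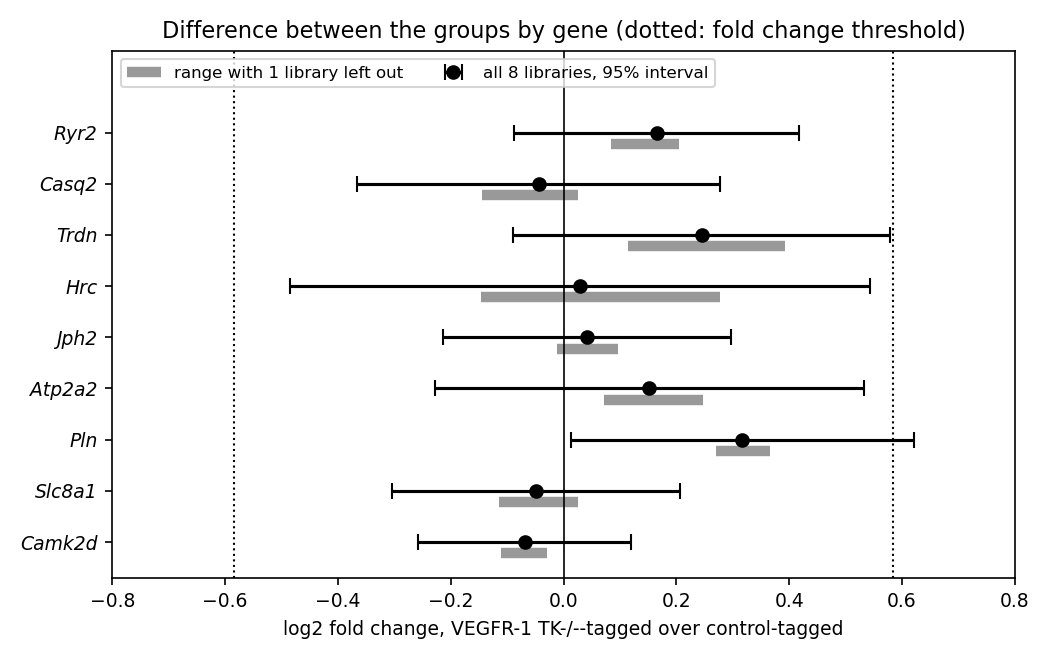
Log2 fold change of the 9 tested genes (x axis, VEGFR-1 TK-/--tagged over control-tagged) from the edgeR quasi-likelihood fit of all 8 libraries, with 95% intervals, and in grey the range when 1 library was left out. The interval of *Pln* (0.01 to 0.62) is the one that does not span 0, and the grey ranges of *Casq2*, *Hrc*, *Jph2* and *Slc8a1* cross 0.

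The members also differed in how far single libraries stood apart. The SD of log2 normalized CPM inside the groups was 0.42 for *Hrc*, larger than that of 97.3% of the 3431 genes with a mean of at least 50 CPM, whose median was 0.16. It was 0.26 for *Trdn* (84.2% of genes smaller) and 0.21 for *Casq2* (70.8%). *Atp2a2* (0.19), *Slc8a1* (0.18), *Jph2* (0.14) and *Pln* (0.13) were near the median. *Ryr2* (0.12, 26.9% smaller) and *Camk2d* (0.08, 8.69% smaller) had the smallest SD on this scale. After correction for GC content the SD of *Camk2d* was 0.13, above those of *Jph2* (0.11) and *Ryr2* (0.12).

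Control-tagged replicate 2 held the lowest value of 6 of the 9 members, and all 9 were below their mean of the 8 libraries there. The summed cardiomyocyte markers were also lowest in this library, at 68345 normalized CPM against 87332 or more in the others, and the summed fibroblast markers highest, at 1540. The part of cell content in the low values was not tested. Per 1000 CPM of cardiomyocyte markers the members went different ways in this library. *Ryr2* (16.5 CPM), *Atp2a2* (150), *Trdn* (2.49), *Jph2* (10.3), *Slc8a1* (0.755) and *Camk2d* (2.21) were at their highest of the 8 libraries there, *Pln* (55.9) and *Casq2* (18.6) were not at either end, and *Hrc* (14.1) was still at its lowest. In control-tagged replicate 3 the members went apart, with *Hrc* 0.59 above and *Trdn* 0.57 and *Pln* 0.29 below their mean on the log2 scale. *Casq2* was 0.23, *Atp2a2* 0.19, *Camk2d* 0.15, *Jph2* 0.12 and *Slc8a1* 0.07 above theirs, and *Ryr2* deviated by −0.01. The order did not follow the GC content of the transcripts throughout. It is 36.8% for *Trdn*, 38.6% for *Pln* and 53.3% for *Hrc*, but 40.2% for *Slc8a1*, 43.9% for *Camk2d* and 61.8%, the highest, for *Jph2*. With correction for GC content the SD inside the groups fell to 0.18 for *Trdn* and 0.39 for *Hrc*. It rose for *Pln* from 0.129 to 0.16, for *Atp2a2* from 0.189 to 0.2 and for *Slc8a1* from 0.179 to 0.224. For *Casq2* the rise was from 0.207 to 0.221, and *Camk2d* also rose, so the correction did not lower the spread of every member. No single library was high for all members; VEGFR-1 TK-/--tagged replicate 2 was above the mean for 7 of 9 and held the highest *Ryr2*, *Casq2* and *Trdn*.

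**Figure D4:**
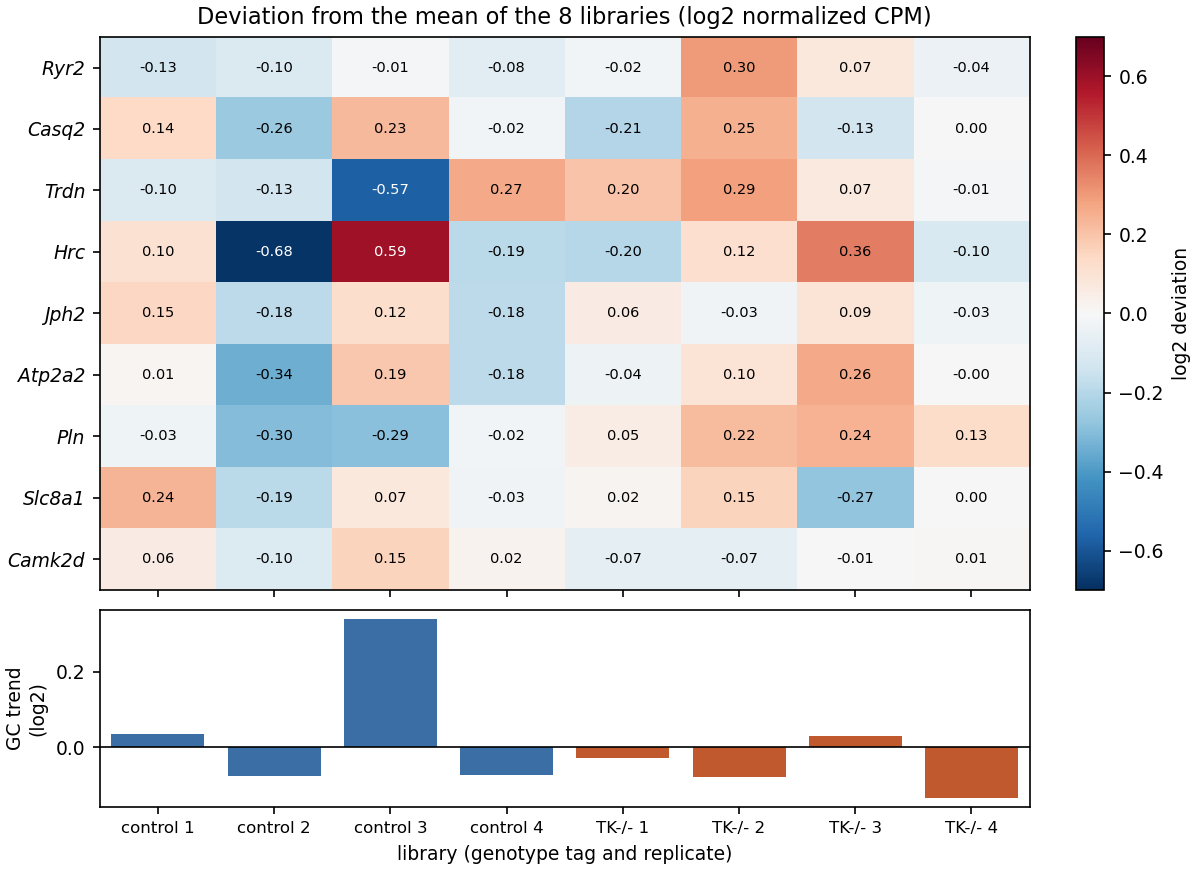
Top, deviation of log2 normalized CPM from the mean of the 8 libraries for the 9 tested genes (colour scale, log2), with libraries in columns by genotype tag and replicate; bottom, the GC trend of each library, the median log2 deviation of the highest GC quintile of genes minus that of the lowest. All 9 genes are below 0 in control-tagged replicate 2, and the GC trend is 0.34 in control-tagged replicate 3 against −0.13 to 0.03 elsewhere.

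Relations between members that act together were computed for 8 pairs over the 8 libraries. On TMM-normalized values no relation passed the adjustment over the 8 pairs. *Jph2* and *Hrc* gave the highest Pearson r, 0.76 (exact permutation p = 0.0259, adjusted p = 0.208), with a Spearman rho of 0.69 (exact permutation p = 0.0694, adjusted p = 0.222). Their r was 0.51 without the 2 libraries farthest from the median of *Jph2*, control-tagged replicates 2 and 4, and 0.16 when libraries were scaled by total counts in place of TMM. The luminal binders *Casq2* and *Hrc* gave r = 0.68 (exact permutation p = 0.0622, adjusted p = 0.249) and rho = 0.71 (exact permutation p = 0.0576, adjusted p = 0.222), with r = 0.56 without the 2 farthest libraries and 0.30 with total counts. *Atp2a2* and *Pln* gave r = 0.47 (exact permutation p = 0.244, adjusted p = 0.487) and rho = 0.50 (exact permutation p = 0.216, adjusted p = 0.432), r = −0.30 without VEGFR-1 TK-/--tagged replicate 3 and control-tagged replicate 2, the 2 farthest libraries, and r = 0.28 with total counts. Within the groups, as deviations from the group means, r was 0.20 for this pair. Control-tagged replicate 3, high in *Atp2a2* and low in *Pln*, stood apart for this pair. Without it r was 0.91, and with GC-corrected values of all 8 libraries r was 0.89 (exact permutation p = 0.00407, adjusted p = 0.0325). *Ryr2* gave r = 0.51 with *Atp2a2* (rho 0.67, r = 0.42 without the 2 farthest and 0.10 with total counts). It gave 0.38 with *Trdn*, 0.10 with *Slc8a1* and −0.26 with *Camk2d*, and without the 2 farthest libraries these turned to −0.18, −0.08 and 0.23. With total counts the r of *Ryr2* was 0.60 with *Trdn* and −0.54 with *Camk2d*. *Casq2* with *Trdn* gave −0.25, with −0.82 without the 2 farthest and 0.29 without control-tagged replicate 3. The adjusted Pearson p-values of these 5 pairs were 0.487 to 0.816 (exact permutation).

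The genes with the most similar profile over the 8 libraries were taken from 8878 genes with a mean of at least 10 normalized CPM, by Pearson r of log2 normalized CPM, as a description. For *Atp2a2* they were *Ldhd* (r = 0.996), a mitochondrial lactate dehydrogenase, *Mul1* (0.986), a mitochondrial ubiquitin ligase, and *Acad8* (0.983), an acyl-CoA dehydrogenase. For *Pln* they were *Kif1c* (0.979), a kinesin, *Hadhb* (0.972), a subunit of the mitochondrial trifunctional protein, and *Uqcrb* (0.971), a subunit of respiratory complex III. With GC-corrected values the r of *Kif1c* with *Pln* was 0.53, while the other 5 remained at 0.91 or more.

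Beyond the members, 69 other calcium handling genes were examined, of which 66 passed the filter. The quasi-likelihood and the likelihood ratio test called 0 of 66, and no FDR of the quasi-likelihood test was below 0.1. There were 5 genes at an unadjusted p under 0.05, of which 1 had the higher mean (background 3.32%) and 4 the lower mean (background 5.64%) with the VEGFR-1 TK-/- tag, together 7.58% against 8.96% of all genes. Log2 fold changes were above 0 for 33 genes and below 0 for 33, with a median of 0.003.

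The 5 genes with the lowest p gave small differences that failed the correction. *Itpr2*, an IP3 receptor that releases calcium from intracellular stores, was at 19.8, 23.2, 22.5 and 23.5 normalized CPM in the control-tagged and 17.9, 15.5, 18.0 and 18.3 in those tagged VEGFR-1 TK-/-, without overlap. Its log2 fold change was −0.35 (SE 0.10, FDR = 0.453, edgeR quasi-likelihood test). *Slc8b1*, the sodium-calcium exchanger of mitochondria, was at 19.1 ± 1.74 and 15.1 ± 1.81 (SD, n = 4 per group), and the log2 fold change was −0.34 (FDR = 0.476). *Atp2b4*, a plasma membrane calcium pump, was at 29.7 ± 8.31 and 22.4 ± 0.730 (SD, n = 4 per group), and the log2 fold change was −0.41 (FDR = 0.530) with overlapping groups. *Stim1*, the SR calcium sensor of store-operated entry, was at 25.1 ± 0.475 and 21.9 ± 1.15 (SD, n = 4 per group) without overlap, a log2 fold change of −0.20 (FDR = 0.551). *Cacna1c*, the pore of the L-type channel, was at 251 ± 27.5 and 301 ± 32.1 (SD, n = 4 per group), and the log2 fold change was 0.26 (FDR = 0.544).

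By role, the 16 tested release channels and partners had 4 log2 fold changes above and 12 below 0 (median −0.13), and the 11 tested pump genes 8 above and 3 below (median 0.09). The medians were within 0.06 of 0 for the dyad and T-tubule (8 tested), sarcolemmal transport (12), CaMKII and PKA regulation (11) and mitochondrial calcium (8) lists. None of these lists held a called gene.

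**Figure D5:**
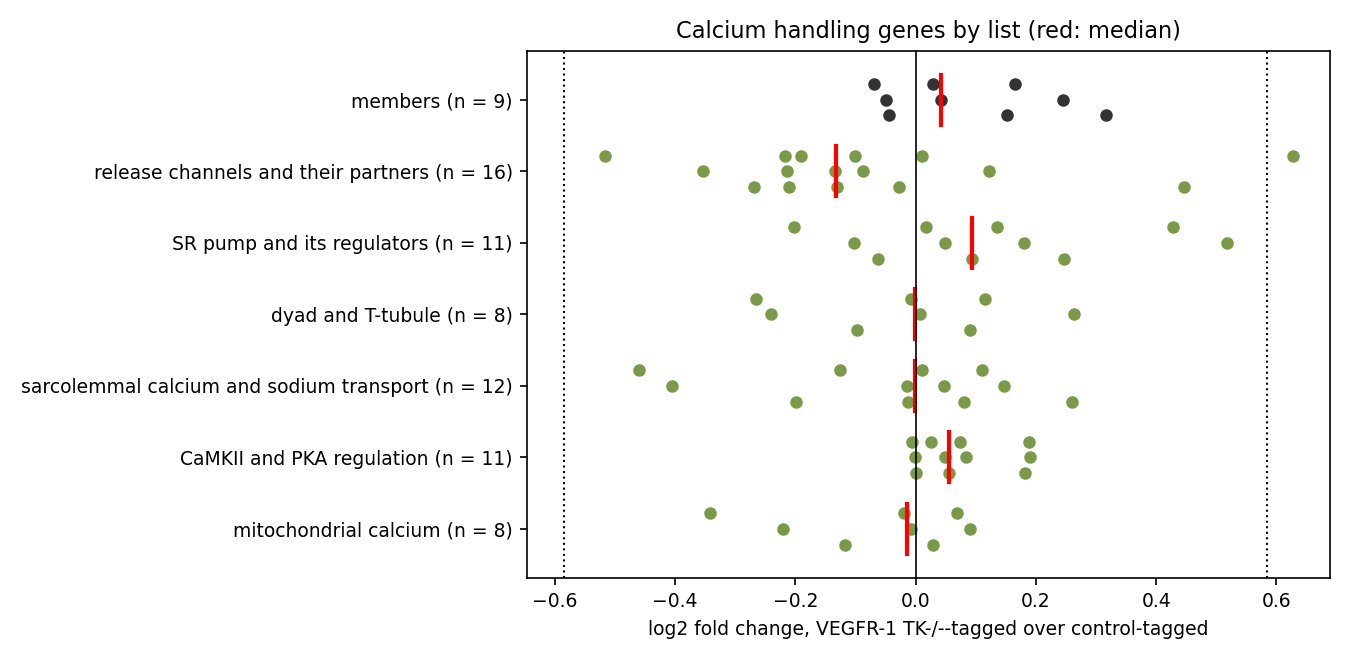
Log2 fold change (x axis, VEGFR-1 TK-/--tagged over control-tagged) of the 9 tested members and of the tested genes of 6 calcium handling lists, with 1 point per gene, the list median in red and the fold change threshold dotted. No gene passed the thresholds, and the list medians lie between −0.13 and 0.09.

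Close homologs of the members were mostly low. The skeletal release channel *Ryr1* (3 to 12 counts per library), myoregulin *Mrln* (2 to 7) and *Slc8a3* (0 to 3) did not pass the filter. *Ryr3* was at 0.963 ± 0.378 and 1.496 ± 0.661 and the skeletal pump *Atp2a1* at 0.918 ± 0.224 and 1.322 ± 0.359 normalized CPM (mean ± SD of 4 libraries each), with overlapping groups. *Atp2a3* was at 29.0 ± 5.89 and 25.2 ± 2.85 and the junctophilin *Jph1* at 16.7 ± 2.14 and 16.6 ± 1.27 normalized CPM. The skeletal calsequestrin *Casq1* was at 10.3, 6.68, 28.1 and 9.92 normalized CPM in the control-tagged and 6.50, 12.9, 12.4 and 6.94 in the libraries tagged VEGFR-1 TK-/-. The highest value was in control-tagged replicate 3, and its log2 fold change was −0.52 (FDR = 0.732, edgeR quasi-likelihood test) with that library and 0.11 without it. *Strit1*, which codes for the pump activator DWORF and is listed in the table as *Gm34302*, was at 10.1 ± 4.60 and 11.98 ± 7.37 normalized CPM (mean ± SD of 4 libraries each). *Slc8a2* was at 4.33 ± 1.68 and 3.15 ± 0.791, and the CaMKII genes *Camk2a*, *Camk2b* and *Camk2g* had log2 fold changes of 0.19, 0.06 and 0.05. No homolog had an FDR under 0.1.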

How the data were processed

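The data are 8 RNA libraries of mouse LVs. Library preparation is described as depletion of ribosomal RNA in the labels and as poly-A selection in the methods of the study. The authors trimmed reads with Trim Galore 0.4.4, aligned them to GRCm38 with STAR 2.5.4b and counted them on GENCODE M16 genes with featureCounts, and they deposited whole-number counts per gene, not normalized. The methods name a stranded kit, where the labels name another, and a limit on alignments per read in STAR. The strand, overlap and multiple-alignment settings of featureCounts are not given in the sources used here. Counting without strand could add antisense reads to a gene, or leave out its own reads where genes overlap, depending on the overlap setting.

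Genes reaching 1 CPM in 2 or more libraries entered the fit and were scaled by TMM (factors 0.917 to 1.12) and tested with edgeR 4.0.16 (glmQLFit and glmQLFTest, 8 libraries, no covariates). The FDR was adjusted by Benjamini-Hochberg across all 13542 genes. Log2 normalized CPM used a prior count of 2. Single values were compared by exact 2-sided permutation tests in scipy 1.17.1, and ratios and relations were adjusted over their families. Coordinates and transcript lengths came from GENCODE M21 (GRCm38). The fits were also run on simulated counts, in which the changed genes had larger fold changes than any member. That run does not show whether differences as small as those of the members would be called. Libraries of 1 group differed by more than sampling noise, so none was a repeat sequencing of another. This cannot show that each came from a different mouse. Each was used as 1 replicate, and p-values of group differences set the difference against the spread between libraries.

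Named genes were the members, *Flt1*, the 5 list genes with the lowest p, close homologs and the 3 genes most like *Atp2a2* and *Pln*, with none for *Sln*. The members and lists were chosen with earlier results of these data known. As alternatives, DESeq2 1.42.0, the likelihood ratio test, RLE factors, total counts, other filters, length correction, the replicate block, a linear ratio and leaving out each library were run. GC correction, the level relative to cardiomyocyte markers and the alternatives for the count of members without overlap were added after the data were seen.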

Additional observations from a re-analysis of the deposited data

Results flagged for a closer look

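In 36 groups of 4 libraries, made of the levels and the ratios of the members, the library farthest out was compared with its group, and 2 groups held a library whose gap to the nearest other exceeded Dixon's 95% critical value, as a share of the range of the group. Such a gap occurs by chance in about 5% of groups. The *Slc8a1* to *Atp2a2* ratio per kilobase was 0.000756 in VEGFR-1 TK-/--tagged replicate 3 against 0.00110 to 0.00114 in the other 3 libraries, a gap of 0.899 of the range. The *Trdn* to *Ryr2* ratio per kilobase was 0.667 in VEGFR-1 TK-/--tagged replicate 1 against 0.569 to 0.5846 in the other 3 libraries of its group, a gap of 0.842 of the range. This value lay inside the range of the control-tagged libraries, 0.389 to 0.729.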

How the results depend on the processing

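No member and no other calcium handling gene was called under any alternative run. Of 153 log2 fold changes of single members, 144 had the same direction, and the other 9 were of *Casq2* (−0.145 to 0.025), *Hrc* (−0.15 to 0.28), *Jph2* (−0.011 to 0.097) and *Slc8a1* (−0.115 to 0.026) with 1 library left out, none called in either direction. With 1 library left out *Pln* was between 0.27 and 0.37, *Trdn* 0.11 and 0.39, *Ryr2* 0.08 and 0.20, *Atp2a2* 0.07 and 0.25, and *Camk2d* −0.11 and −0.03. The count of members without overlap was 1, *Pln*, under RLE factors, total counts, length correction and GC correction. It was 1 to 2 with 1 library left out, with *Camk2d*, *Ryr2* or *Trdn* added without control-tagged replicate 2, 3 or 4, and 0 relative to cardiomyocyte markers. Full separation is easier with 1 library left out, where the smallest exact permutation p is 0.0571 against 0.0286 with all 8. The share of all genes without overlap is not given for these settings, so an added member is not read as a result. The log2 difference of *Pln* to *Atp2a2* was 0.03 to 0.24 with 1 library left out, lowest without control-tagged replicate 3. The ranges were −0.28 to −0.14 for *Camk2d* to *Ryr2*, −0.29 to −0.15 for *Casq2* to *Ryr2*, −0.011 to 0.273 for *Hrc* to *Casq2*, −0.16 to −0.02 for *Jph2* to *Ryr2*, −0.28 to −0.07 for *Slc8a1* to *Atp2a2* and −0.058 to 0.244 for *Trdn* to *Ryr2*, and 69 of 72 alternatives kept direction and side of the threshold. With GC correction *Slc8a1* to *Atp2a2* passed an unadjusted threshold at −0.28, the relation of *Atp2a2* with *Pln* passed at r = 0.89, and that of *Casq2* with *Trdn* turned to r = 0.007, while total counts lowered the r of *Jph2* with *Hrc* to 0.16, of *Casq2* with *Hrc* to 0.30 and of *Atp2a2* with *Ryr2* to 0.10; the cause was not tested. Replicate numbers did not pair the libraries (correlations of deviations of −0.03, 0.03, 0.34 and −0.06, with number 3 alone best with its own). With the replicate block the log2 fold change of *Pln* was 0.32 (FDR = 0.594, edgeR quasi-likelihood test) and the *Pln* to *Atp2a2* difference 0.16, and no call changed. With 1 library left out, the exact permutation test cannot go below 0.0571. Depth limited *Sln*, with 5 counts in all.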

Other observations

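Several partners of the members were outside the named genes and were looked up after their values were seen. *Fkbp1b*, the subunit that stabilises the closed *Ryr2* channel, was at 1.16 ± 0.282 normalized CPM in the control-tagged and 1.07 ± 0.222 in the VEGFR-1 TK-/--tagged libraries (SD, n = 4 per group), with 11 to 23 counts per library. Its paralog *Fkbp1a* was at 228 ± 10.1 and 214 ± 9.93 (SD, n = 4 per group). Per kilobase of transcript, averaged over the 8 libraries, *Fkbp1a* was at 134 and *Fkbp1b* at 1.14 normalized CPM. *Hax1*, a partner of *Pln* in the SR, was barely without overlap, at 16.8 to 24.55 and 24.65 to 26.3 normalized CPM. Its log2 fold change was 0.18 (FDR = 0.700, edgeR quasi-likelihood test) and 0.06 without control-tagged replicate 3. *Jsrp1*, a partner of the release complex of skeletal muscle, was at 1.62 ± 0.305 and 2.23 ± 0.293 (SD, n = 4 per group), also without overlap (FDR = 0.609, 15 to 30 counts per library). Among all genes tested, 4.98% were without overlap, the share to set beside *Hax1*, *Jsrp1*, *Itpr2* and *Stim1*.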
